A study of Mus musculus with 24 samples.

Results

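The ileum, the last stretch of the small intestine, was compared between wild-type mice and mice without the caspase-1 gene (Casp1-null) after a load of olive oil. The comparison used the 6 ileal arrays out of 24 in the series, 3 of each genotype, taken by the tissue and genotype that the sample labels give. The 12 arrays of duodenum and jejunum, with 3 per genotype in each segment, served to show where the ileum differed. All mice were males of 14 to 16 weeks fed standard chow. The wild-type mice were C57Bl/6J, labelled as strain C57BL/6, and the Casp1-null line had been crossed back to C57Bl/6 for 10 generations. Both genotypes were fasted overnight and given 200 µL of olive oil into the stomach, and the intestine was taken 2 h later, cut into segments and scraped to recover the epithelial layer. The comparison holds no mice without oil, and the labels do not say whether the wild-type mice were littermates of the Casp1-null line. Basal level and oil response therefore cannot be told apart, nor can the mutation and the strain background. The series asks what caspase-1 does in the output of triglyceride-rich lipoproteins from gut and liver.

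Caspase-1 is the protease that inflammasomes activate. Sensor proteins such as Nlrc4 and Aim2 assemble with the adaptor Pycard, and the active protease then cleaves interleukin-1β, interleukin-18 and the pore-forming protein Gsdmd. The ileal epithelium absorbs bile acids and vitamin B12, reports bile acid uptake to the liver through the hormone FGF15, and holds Paneth cells that secrete antimicrobial proteins. It absorbs dietary fat too, although most fat is taken up further up the intestine, where fatty acids are bound by Fabp1, re-esterified to triglyceride and packed with Apob by Mttp into chylomicrons.

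Values are log2 signals, and the levels of 3 arrays are given in the order of their replicate numbers. A difference is Casp1-null minus wild type, and a gene was called where limma's p, adjusted over all 35556 probe sets by the Benjamini-Hochberg method, was under 0.05. Errors are the SD of 3 arrays or the SE of the fit. A group whose mean lay under 4.92, the lowest median of an ileal array, was read as not shown above background, and a fold against such a group is given as a lower bound. The labels do not say that each array is a separate mouse, so p-values measure the spread between these samples, which may be technical, and the number of arrays limits the precision.

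The arrays carried the markers of ileal epithelium. Slc10a2, the apical bile acid transporter of the ileum, read 11.76, 11.46 and 11.77 in wild type and 11.70, 11.77 and 11.57 in Casp1-null samples. Lyz1, the Paneth cell lysozyme, read 12.51, 13.05 and 12.84 against 12.68, 12.76 and 13.08. The 2 genotypes overlapped for both markers, and the levels were high on all 6 arrays.

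One array of each genotype was rich in transcripts of the layers beneath the epithelium. Myh11, the smooth muscle myosin, read 4.40, 10.70 and 4.32 in wild type and 4.22, 4.36 and 9.90 in Casp1-null samples. Des, the muscle filament desmin, read 4.55, 11.08 and 4.62 against 4.65, 4.78 and 10.71, and Acta2, smooth muscle actin, read 5.29, 12.31 and 5.20 against 4.68, 5.79 and 11.51. Wild-type array 2 and Casp1-null array 3 thus stood far above the other 4. Over the 24 measured smooth muscle markers the mean level was 8.65 and 7.89 on these arrays and between 4.65 and 4.78 on the other ileal arrays. The same pair was high for fat cells as well: Adipoq, the adipocyte hormone adiponectin, read 7.77 on wild-type array 2 and 8.57 on Casp1-null array 3, against 3.27 to 3.47 elsewhere. The map of marker levels shows this pair in stroma, endothelium and adipocyte markers, the last from a list of 11 measured genes that was added after the values had been seen. It also shows Casp1-null array 3 as the highest for markers of the proximal intestine, 0.68 above the mean of the ileal arrays, with wild-type array 2 the lowest at -0.51. The pair was unlike in other epithelial markers too. Relative to the same mean, enterocyte markers stood at -0.39 on wild-type array 2 and 0.09 on Casp1-null array 3. Paneth cell markers stood at 0.77 and 0.07. The count of called genes, and the named calls of ileum that the loss of this pair removed, are therefore also given without it.

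**Figure D1:**
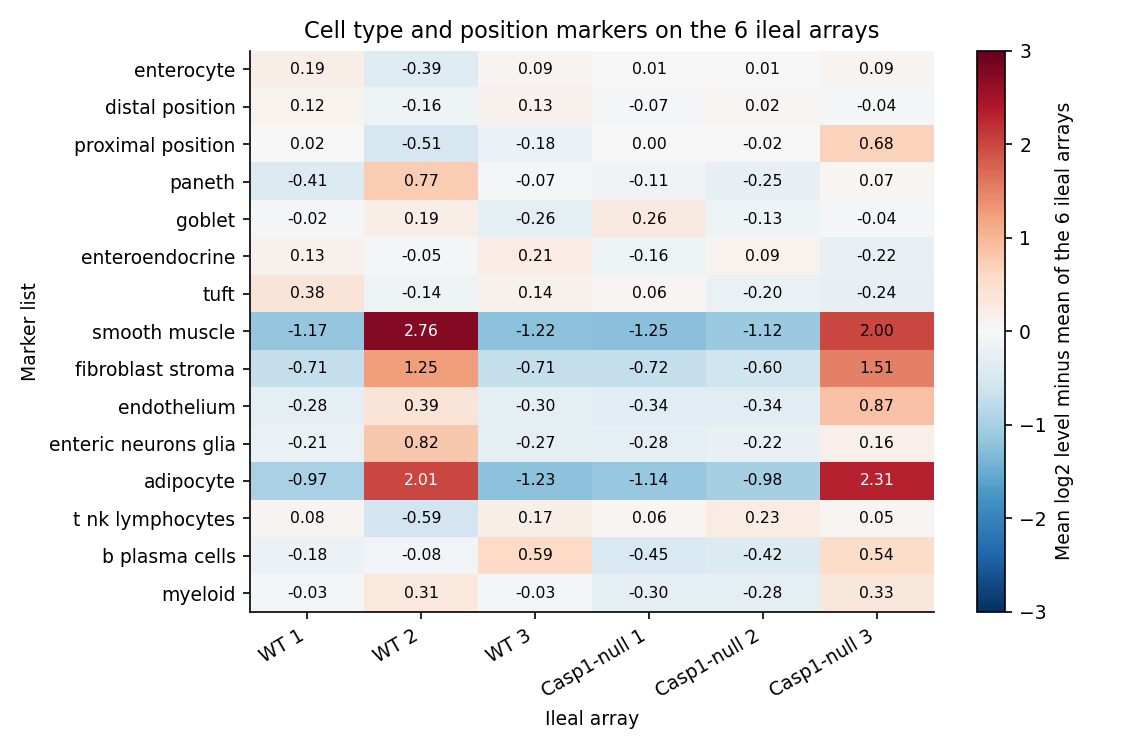
Mean level of 15 marker lists on each ileal array, minus the mean of the 6 arrays (log2, colour and printed number). Smooth muscle markers lie 2.76 above the mean on wild-type (WT) array 2 and 2.00 above it on Casp1-null array 3, and adipocyte markers 2.01 and 2.31 above it, while the other 4 arrays lie below the mean for both lists.

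The targeted transcript was lower in the ileum of Casp1-null mice. Casp1 (Gene ID 12362, chromosome 9) read 9.95, 9.28 and 9.90 in wild type and 7.80, 7.26 and 7.42 in Casp1-null samples. Each array matched its label, with no overlap. The means were 9.71 ± 0.374 and 7.49 ± 0.277 (SD, n = 3 each), a 4.66-fold fall (log2 -2.22, SE 0.226; limma adjusted p = 9.28e-05). The remaining signal stayed above the array medians, and the position of the probe set relative to the deletion was not analysed here.

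Among 29 measured genes of inflammasomes and their effectors, 3 fell, 1 rose and 25 were not called, beside 0.893% of all 18820 genes called in either direction. The list's median difference was -0.01, as was that of all genes. Casp4, the gene of caspase-11 and a chromosomal neighbour of Casp1, read 9.67, 9.05 and 9.35 in wild type and 8.33, 7.61 and 7.93 in Casp1-null samples. It fell 2.64-fold (adjusted p = 0.0237) and was called lower in duodenum (-1.46) and jejunum (-1.97) too. In ileum it stayed called in 2 of the 6 fits that left out 1 array. Its highest adjusted p in these fits was 0.125, without wild-type array 1 (0.0894 without both muscle-rich arrays). Caspase-11 is known to be defective in Casp1-null lines that came from embryonic stem cells of another mouse strain and the labels do not say how this line arose.

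The sensors moved in both directions. Nlrc4, which with the Naip proteins detects bacterial flagellin and secretion systems, read 9.78, 9.34 and 9.83 in wild type and 8.85, 9.14 and 8.61 in Casp1-null ileum and fell 1.72-fold (adjusted p = 0.0199). Aim2, a sensor of cytosolic DNA, read 7.61, 7.32 and 7.72 against 8.52, 8.50 and 8.32 and rose 1.86-fold (adjusted p = 0.0142). The genotypes did not overlap for Nlrc4 or Aim2, as for every called gene. Yet Nlrc4 stayed called in 2 and Aim2 in 3 of the 6 fits that left out 1 array. Their adjusted p reached 0.114 without wild-type array 3 and 0.0671 without wild-type array 2. Without both muscle-rich arrays it was 0.0178 for Nlrc4 and 0.0987 for Aim2. Both were also called with the same sign in duodenum (-1.14 for Nlrc4 and 2.26 for Aim2) and jejunum (-1.32 and 1.27). Nlrp9b, a sensor of the intestinal epithelium, read 8.85, 8.02 and 8.89 against 7.02, 7.02 and 6.94, a difference of -1.59 that did not pass the test (adjusted p = 0.124). It was called in duodenum (-2.36) and jejunum (-2.32), and the ileal difference was not shown to depart from theirs (adjusted p = 0.909).

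No other member of the list was called. The adaptor Pycard was at 9.88 in wild type and 9.86 in Casp1-null samples, and Nlrp6, a sensor of intestinal epithelium, at 9.90 and 10.01. Gsdmd was at 9.66 and 9.98, and Il18, the interleukin that epithelial cells themselves make, at 7.96 and 7.98. Nlrp3 and Il1b were under the array medians in both genotypes. None of the 20 measured genes of the interleukin-1 family was called, with differences between -0.20 and 0.38.

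Over all genes, 168 of 18820 differed between the genotypes in the ileum (0.893%), 79 higher (0.42%) and 89 lower (0.473%) in Casp1-null samples. The change was 2-fold or more for 40 of the rises and 44 of the falls. Before adjustment, 1299 genes had a p under 0.05, and 1738 genes (9.23%) had no overlap between the genotypes, 4.49% higher and 4.74% lower in Casp1-null samples. All 168 called genes were among these 1738, so a lack of overlap adds nothing to a call. In 36 of the called genes the lower group was not shown above background, and in 13 neither group was. A further 79 called probe sets carried no single gene symbol and are not named.

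**Figure D2:**
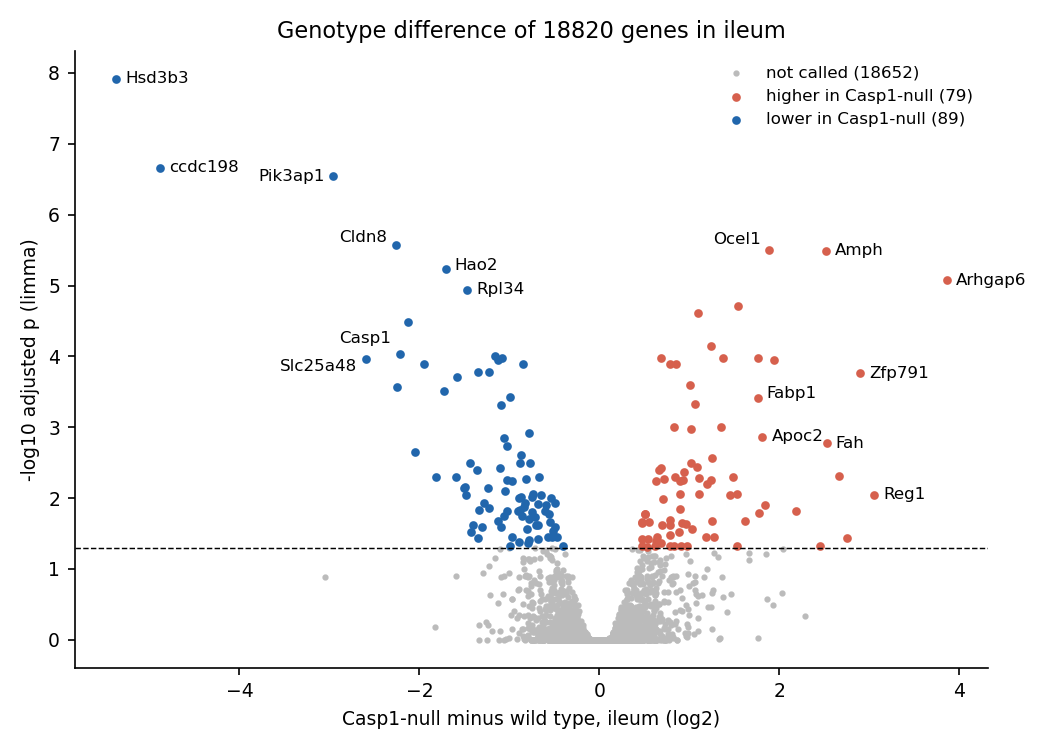
Genotype difference in ileum (log2, Casp1-null minus wild type) against -log10 of limma's adjusted p for 18820 genes, with the dashed line at an adjusted p of 0.05. Blue points are the 89 genes called lower and red points the 79 called higher; Hsd3b3 and ccdc198 lie farthest to the left and Arhgap6 farthest to the right.

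With the muscle-rich pair left out, so with 2 arrays a genotype, 117 genes were called, 42 higher and 75 lower, and 85 of the 168 were among them. Without Casp1-null array 3 alone there were 109 calls, and without wild-type array 3 alone 52 falls in place of 89. Of the 168, 83 stayed called whichever single array was left out. On the 6 ileal arrays alone, with 4 residual degrees of freedom, 23 genes were called. The 21 genes called in all of these fits, 10 higher and 11 lower, are marked below as the most stable.

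The largest fall was that of Hsd3b3 (Gene ID 15494, chromosome 3), a 3β-hydroxysteroid dehydrogenase, which read 8.88, 8.50 and 9.08 in wild type and 3.13, 3.90 and 3.32 in Casp1-null samples. It fell at least 41.4-fold (log2 -5.37, SE 0.225; adjusted p = 1.21e-08), and it was as far apart in duodenum (-4.87) and jejunum (-5.24). Its neighbour Hsd3b2, of the same enzyme family, read 5.28, 4.89 and 5.19 against 3.18, 3.21 and 3.13 and fell at least 3.85-fold (adjusted p = 0.000128). Probes for members of this family can share sequence, so the levels of Hsd3b2 and Hsd3b3 may not be separate measurements. Both are among the most stable falls.

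The other large falls came from genes of varied function. Tfcp2l1, a transcription factor of the grainyhead-like family, read 10.59, 9.91 and 10.14 in wild type and 8.42, 7.89 and 7.95 in Casp1-null samples, a 4.36-fold fall (adjusted p = 3.24e-05). Cstdc4, a small cysteine protease inhibitor of the stefin type, read 7.85, 6.75 and 7.77 against 5.19, 5.34 and 5.10 and fell 4.76-fold (adjusted p = 0.000273). Cyp2c68, a cytochrome P450, read 7.62, 6.95 and 8.11 against 5.63, 5.72 and 5.90 and fell 3.51-fold (adjusted p = 0.00511). The genotypes were apart on every array for these genes, as the rule for naming the largest falls required. Wild-type array 2 was the lowest of its group in each. Further members of the 15 largest falls were Frmd3 (-2.04, Casp1-null mean under the array medians), Arhgap31 (-1.73), Mapkbp1 (-1.59) and Miga1, which acts in mitochondrial fusion (-1.58). A second probe set for Mapkbp1 differed by -0.28 and was not called.

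Smaller but very even falls were seen in Rpl34, Camk2b and Churc1. Rpl34, a protein of the large ribosomal subunit, read 9.47, 9.51 and 9.50 in wild type and 8.13, 7.92 and 8.03 in Casp1-null samples, a 2.76-fold fall (adjusted p = 1.15e-05). Ribosomal protein genes have many processed copies in the genome, so this signal may come from more than the named gene. Camk2b, a calcium-dependent kinase, fell 2.54-fold (adjusted p = 0.000167) and Churc1 2.35-fold (adjusted p = 0.000167). Rpl34, Camk2b, Churc1 and Tfcp2l1 were called in duodenum and jejunum as well, and all 4 are among the most stable falls.

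**Figure D3:**
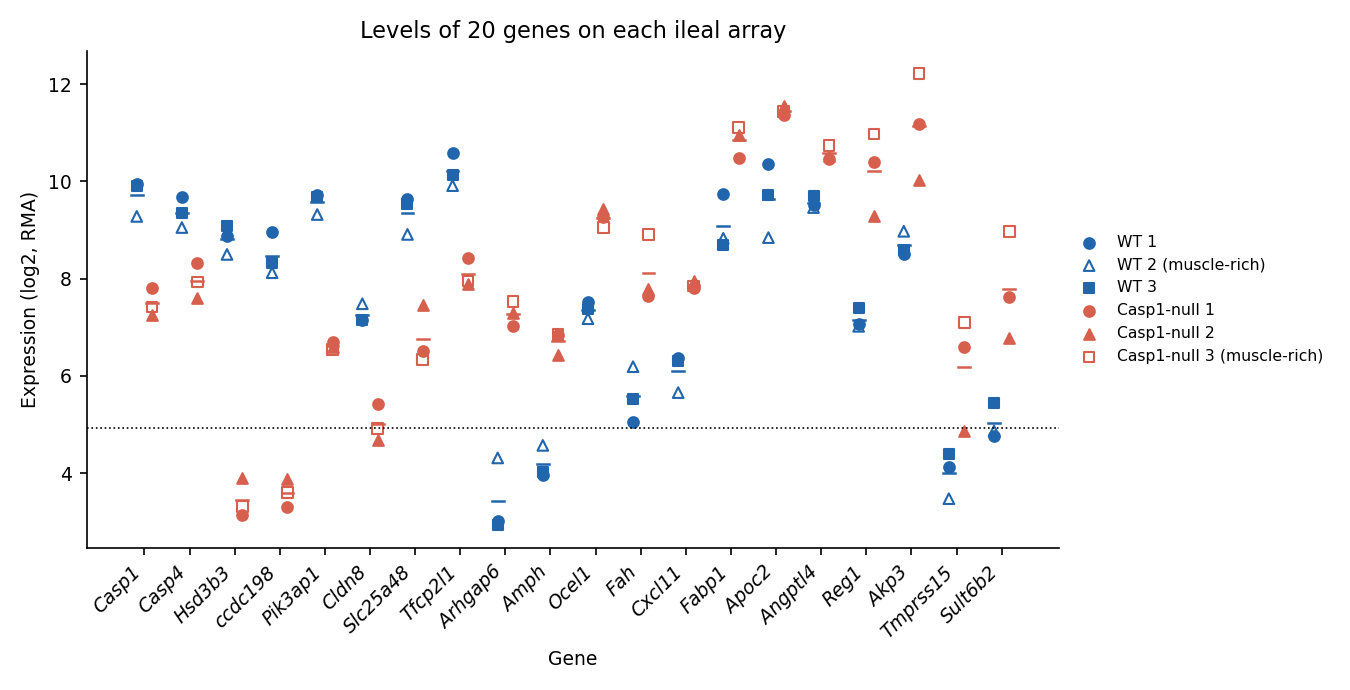
Levels (log2) of 20 genes on the 6 ileal arrays, wild type (WT) in blue and Casp1-null in red, with marker shape for the replicate number, open markers for the muscle-rich arrays, a bar for the mean of 3 and a dotted line at 4.92, the lowest ileal array median. The genotypes do not overlap for any of the 20 genes, as for every called gene. Casp1-null array 3 is the highest point for Reg1, Akp3, Tmprss15 and Sult6b2.

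Among the rises, Arhgap6 (Gene ID 11856, chromosome X) was the largest. It read 3.02, 4.31 and 2.92 in wild type and 7.02, 7.29 and 7.53 in Casp1-null samples and rose at least 14.6-fold (log2 3.86, SE 0.316; adjusted p = 8.44e-06), with 3.65 in duodenum and 3.49 in jejunum. Zfp791, a zinc finger protein, read 4.20, 4.02 and 3.85 against 7.32, 6.69 and 6.75 and rose at least 7.46-fold (adjusted p = 0.000173). Fah, the last enzyme of tyrosine breakdown, read 5.04, 6.19 and 5.52 against 7.65, 7.79 and 8.90 and rose 5.78-fold (adjusted p = 0.00168). Every Casp1-null array was above every wild-type array for Arhgap6, Zfp791 and Fah, which the rule for naming the largest rises required. The oxidoreductase Pyroxd2 (3.83-fold) and Ocel1 (3.72-fold), which carries a domain shared with occludin, rose with adjusted p of 0.000111 and 3.18e-06. Psg28, of the pregnancy-specific glycoproteins, read 4.05, 3.57 and 4.13 against 7.27, 5.98 and 6.51 and rose at least 6.36-fold (adjusted p = 0.00485; 0.065 without both muscle-rich arrays). The acyltransferase Mboat2 (at least 3.60-fold, adjusted p = 0.0123) and 9930012K11Rik (3.43-fold, 0.016) were called in 2 and 3 of the 6 fits with 1 array left out, with adjusted p up to 0.072 without wild-type array 3 and 0.0746 without wild-type array 2. The adjusted p for 9930012K11Rik was 0.0636 without both muscle-rich arrays.

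The most stable rises were of varied function and included mitochondrial genes and the haem gene Alad. Nnt, the mitochondrial transhydrogenase that makes NADPH, read 7.53, 7.90 and 7.82 in wild type and 8.95, 8.97 and 9.04 in Casp1-null samples and rose 2.36-fold (adjusted p = 7.22e-05). C57BL/6J mice are known to carry a deletion within Nnt, and a second probe set of the gene differed by -0.14 and was not called. Alad, an early enzyme of haem synthesis, rose 2.01-fold, from 9.78 ± 0.129 to 10.79 ± 0.0683 (SD, n = 3 each; limma adjusted p = 0.000251). Hddc3 rose 2.92-fold, Mrpl20 of the mitochondrial ribosome 2.09-fold and Trappc2l, of a vesicle tethering complex, 2.37-fold. With Amph, Arhgap6, Ocel1, Pyroxd2 and Zfp791 these make up the 10 most stable rises. All of them except Trappc2l were called higher in duodenum and jejunum too, so these rises were not particular to the ileum. Nnt, for example, differed by 1.43 in duodenum and 1.51 in jejunum. Trappc2l differed by 0.66 and 0.71 there.

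4 of the 15 largest rises, Reg1, Akp3, Tmprss15 and Sult6b2, were grouped after their values had been seen, for high levels in wild-type duodenum. Apoc2, Ocel1 and Mboat2, also among the 15, had their highest wild-type level there too and are described elsewhere. For Mboat2 the wild-type means were under the ileal array medians in every segment (4.46 in duodenum, 3.62 in jejunum and 4.19 in ileum), so its rank is not shown above background. Reg1, a secreted lectin of the regenerating family, read 7.06, 7.02 and 7.39 in wild-type ileum and 10.39, 9.29 and 10.97 in Casp1-null ileum, and rose 8.34-fold (SE 0.52; adjusted p = 0.009). Akp3, the alkaline phosphatase of the duodenal brush border, read 8.50, 8.97 and 8.58 against 11.17, 10.04 and 12.22 (5.49-fold, adjusted p = 0.0475). Their wild-type levels in duodenum were 13.02 for Reg1 and 13.25 for Akp3, above every ileal array. Tmprss15, the enteropeptidase that activates trypsinogen, read 4.13, 3.47 and 4.39 against 6.59, 4.87 and 7.10 (at least 4.55-fold, adjusted p = 0.0152). Sult6b2, a sulfotransferase, read 4.76, 4.87 and 5.45 against 7.62, 6.77 and 8.97 (6.77-fold, adjusted p = 0.0364). In wild-type duodenum Tmprss15 stood at 11.61 and Sult6b2 at 12.22.

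For Reg1, Akp3, Tmprss15 and Sult6b2 Casp1-null array 3, the array highest in proximal markers as a whole, was the highest and array 2 the lowest of the mutants. Without Casp1-null array 3 the adjusted p was 0.0531 for Reg1, 0.2 for Akp3 and 0.158 for Sult6b2, and for Tmprss15 it was highest without wild-type array 2, at 0.0722. Of the 6 fits with 1 array left out, Reg1 was called in 5, Tmprss15 in 3, and Akp3 and Sult6b2 in 1. Without both muscle-rich arrays the differences were 2.61 for Reg1 (adjusted p = 0.128), 2.06 for Akp3 (0.255), 1.47 for Tmprss15 (0.183) and 2.09 for Sult6b2 (0.305). The 16 measured proximal markers had a median difference of 0.35, against -0.01 over all genes, and 0.06 without both arrays, and Fabp1 was the only one called. The part of the proximal markers and of the muscle-rich arrays in these rises was not tested.

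The genotype difference in the ileum departed from the mean of those in duodenum and jejunum for 11 genes (0.0584% of 18820), 6 more negative and 5 more positive in the ileum. At an unadjusted p under 0.05 there were 1093. The duodenal and jejunal arrays took part in the same fit, and this test asks about the difference between the differences.

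For the 6 genes on the negative side, the mean of wild-type ileum was above that of both wild-type proximal segments, by a wide margin in 5 and by little in Fam241a, and the transcript was lower in Casp1-null ileum. ccdc198 (Gene ID 67082, chromosome 14), a coiled-coil protein gene written in lower case in the gene table, read 8.96, 8.12 and 8.33 in wild-type ileum and 3.29, 3.87 and 3.60 in Casp1-null ileum. That was a fall of at least 29.5-fold (log2 -4.88, SE 0.271; adjusted p = 2.19e-07). In wild-type duodenum and jejunum it was at 3.51 and 4.09, under the ileal array medians, as it was in Casp1-null duodenum (3.33) and jejunum (3.10). The ileal difference was -4.29 beyond the mean proximal one (SE 0.332; adjusted p = 3.31e-05).

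The 250 bases before the start of ccdc198 are shown because this gene had the largest difference between segments, at chr14:49245429-49245678 of GRCm38.p6 on the minus strand (RefSeq), read 5′ to 3′ in the direction of transcription, with no capitals because neither motif named further on was present.
ccdc198: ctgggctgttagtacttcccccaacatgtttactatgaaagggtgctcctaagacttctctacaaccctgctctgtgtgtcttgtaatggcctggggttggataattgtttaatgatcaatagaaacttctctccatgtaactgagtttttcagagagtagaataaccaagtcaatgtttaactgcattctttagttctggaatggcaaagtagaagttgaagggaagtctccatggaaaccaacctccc
The window ends at the base before the annotated start.

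Pik3ap1, an adaptor that links receptors to phosphoinositide 3-kinase, read 9.72, 9.32 and 9.67 in wild-type ileum and 6.70, 6.60 and 6.54 in Casp1-null ileum. It fell 7.76-fold (SE 0.171; adjusted p = 2.89e-07), while the proximal groups of both genotypes lay between 6.53 and 6.90. The mutant ileum thus had the level of the proximal segments, and the difference between segments was -2.78 (adjusted p = 3.31e-05). Cldn8, a claudin of tight junctions, read 7.16, 7.48 and 7.14 against 5.41, 4.68 and 4.91, a 4.79-fold fall (adjusted p = 2.65e-06). Its proximal groups lay between 3.69 and 3.94, under the ileal array medians, and the difference between segments was -2.13 (adjusted p = 0.000327).

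Hao2, a peroxisomal oxidase of hydroxy fatty acids, read 4.96, 5.42 and 5.08 in wild-type ileum and 3.36, 3.63 and 3.35 in Casp1-null ileum, a fall of at least 3.27-fold (adjusted p = 5.79e-06). The wild-type level of Hao2 was itself close to the array medians. Slc25a48, a mitochondrial carrier, read 9.64, 8.91 and 9.53 against 6.50, 7.46 and 6.33 and fell 6.04-fold (adjusted p = 0.000109). Fam241a was the closest to the proximal segments: it was at 6.99 in wild-type ileum and at 6.88 and 6.93 in wild-type duodenum and jejunum, and it fell 2.11-fold in the ileum (adjusted p = 0.000104). The differences between segments were -1.53 for Hao2 (adjusted p = 0.0014), -2.20 for Slc25a48 (0.0283) and -0.92 for Fam241a (0.0236).

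**Figure D4:**
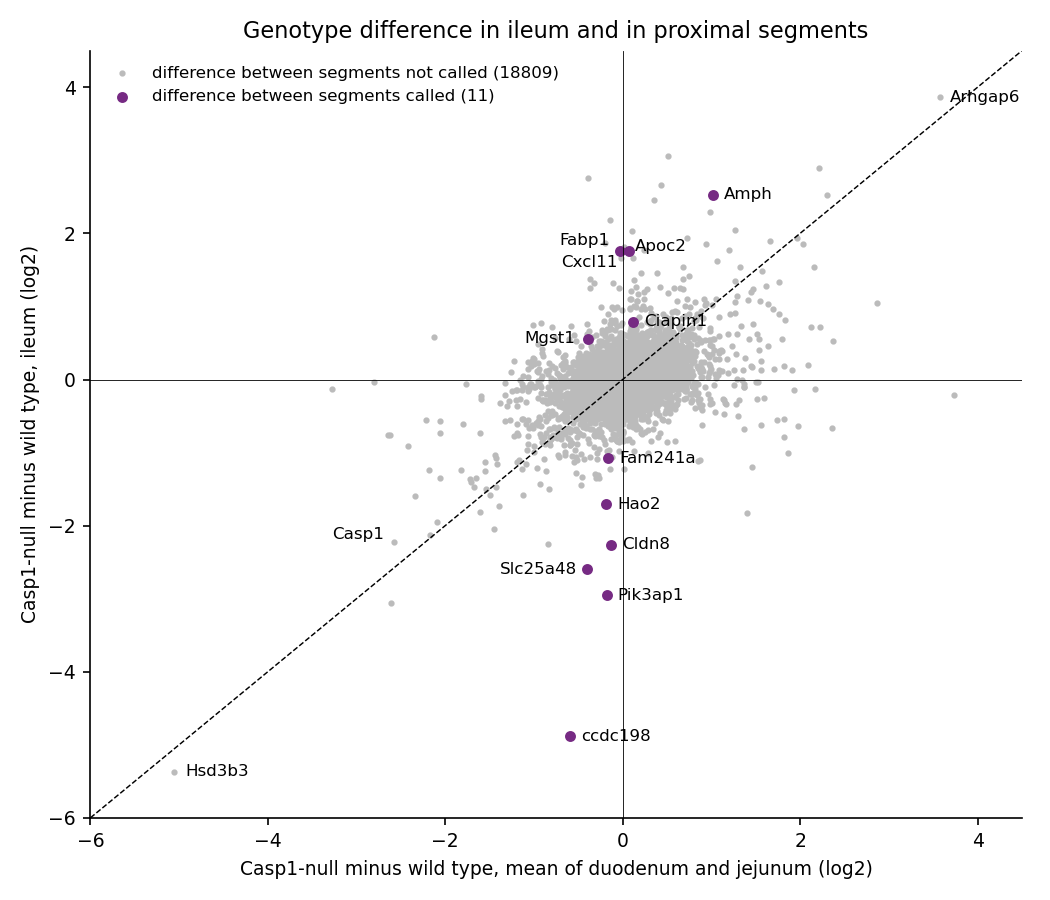
Genotype difference of 18820 genes in ileum against the mean of the differences in duodenum and jejunum (log2, Casp1-null minus wild type), with the dashed line marking equal differences. The 11 genes whose ileal difference departed from the proximal mean are in purple and named; ccdc198, Pik3ap1, Cldn8, Slc25a48 and Hao2 lie near 0 on the horizontal axis and far below it on the vertical one, while Casp1, Hsd3b3 and Arhgap6 lie near the line.

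On the positive side, Fabp1, the fatty acid binding protein shared by liver and intestine, read 9.74, 8.83 and 8.70 in wild-type ileum and 10.49, 10.96 and 11.10 in Casp1-null ileum. It rose 3.39-fold (log2 1.76, SE 0.212; adjusted p = 0.000381), with 0.05 in duodenum and -0.11 in jejunum. Proximal levels of both genotypes were near the top of the scale, between 12.62 and 12.77. The difference between segments was 1.79 (adjusted p = 0.0214), but it was called in 2 of the 6 fits with 1 array left out (adjusted p up to 0.0834) and not without both muscle-rich arrays (1.53, 0.122). Apoc2, the apolipoprotein that activates lipoprotein lipase, had the same course just outside the threshold. It read 10.36, 8.84 and 9.72 against 11.37, 11.55 and 11.44 and rose 3.52-fold (SE 0.246; adjusted p = 0.00137), with -0.00 in duodenum and 0.03 in jejunum (difference 1.80, adjusted p = 0.0552). Its wild-type levels were 12.56 in duodenum and 12.39 in jejunum. Both genes were called in each fit with 1 array left out and without both muscle-rich arrays (adjusted p = 0.0154 for Fabp1 and 0.00132 for Apoc2). Neither was called on the 6 ileal arrays alone (adjusted p = 0.195 for Fabp1 and 0.272 for Apoc2). The shared fit pools the spread of all segments. The SD in wild-type ileum was 0.569 for Fabp1 and 0.763 for Apoc2, against 0.0154 to 0.13 and 0.0578 to 0.166 in the proximal groups.

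The 250 bases before the starts of Fabp1 (chr6:71199629-71199878, plus strand) and Apoc2 (chr7:19677942-19678191, minus strand) are shown because both genes rose in ileum beside differences near 0 in the proximal segments (RefSeq, GRCm38.p6, 5′ to 3′ in the direction of transcription). Capitals mark AGGTCA or its reverse complement TGACCT, the half-site of many nuclear receptors, and GTTAAT or ATTAAC, a half-site of HNF1 factors. The motifs were chosen after these sequences had been read.
Fabp1: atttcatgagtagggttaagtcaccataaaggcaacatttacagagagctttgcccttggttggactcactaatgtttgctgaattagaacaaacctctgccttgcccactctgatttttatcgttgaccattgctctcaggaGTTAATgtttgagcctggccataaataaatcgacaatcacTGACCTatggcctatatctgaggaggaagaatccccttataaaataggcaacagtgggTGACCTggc
Apoc2: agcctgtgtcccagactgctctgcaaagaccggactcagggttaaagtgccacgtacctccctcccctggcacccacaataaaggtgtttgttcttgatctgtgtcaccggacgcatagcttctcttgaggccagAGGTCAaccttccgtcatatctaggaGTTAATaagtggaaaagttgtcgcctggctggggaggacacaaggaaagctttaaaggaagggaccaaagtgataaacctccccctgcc
Fabp1 held 2 matches to the first motif and 1 to the second, and Apoc2 held 1 of each. Over the windows of 27025 genes, 13.8% held the first motif on either strand, 6.52% the second and 1.0% both. Since the motifs were chosen with the Fabp1 and Apoc2 windows in view, these shares cannot show that the matches there are unusual. Among the 11 genes that differed between segments, 9 had a window in the table: only Fabp1 held the first motif, and Fabp1 and Hao2 held the second.

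Cxcl11, a chemokine induced by interferon that attracts T cells, read 6.36, 5.66 and 6.30 in wild-type ileum and 7.81, 7.95 and 7.85 in Casp1-null ileum. It rose 3.40-fold (SE 0.184; adjusted p = 0.000105) and differed between segments by 1.70 (adjusted p = 0.0103). Its wild-type levels were 7.09 in duodenum and 7.73 in jejunum, so the wild-type ileum was the low group. Amph, amphiphysin, which acts in endocytosis, read 3.96, 4.57 and 4.01 against 6.84, 6.44 and 6.84 and rose at least 5.76-fold (adjusted p = 3.25e-06). It was called higher in duodenum and jejunum too, where the Casp1-null means were 4.96 and 5.22 against 6.71 in ileum. The wild-type means of Amph were under the array medians in all 3 segments, so the fitted difference between segments, 1.51 (adjusted p = 0.0302), has no measured size.

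The other 2 were modest in size. Mgst1, a microsomal glutathione transferase, read 10.45, 10.61 and 10.52 in wild-type and 11.06, 10.99 and 11.21 in Casp1-null ileum, a 1.47-fold rise (adjusted p = 0.0215, 0.113 without Casp1-null array 3 and 0.129 without both muscle-rich arrays), against -0.33 in duodenum and -0.44 in jejunum, neither of which was called (difference 0.94, adjusted p = 0.0157). Ciapin1, an assembly factor of cytosolic iron-sulfur proteins, read 7.95, 8.06 and 7.92 against 8.62, 8.93 and 8.75, a 1.73-fold rise (adjusted p = 0.000127). In the proximal segments it differed by -0.36 in duodenum and 0.60 in jejunum, and only the jejunal difference was called. For Ciapin1 the mean of the proximal differences therefore joins opposite signs (difference 0.67, adjusted p = 0.0302).

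With 1 array left out, the difference between segments stayed called in all 6 fits for ccdc198, Pik3ap1, Cldn8, Cxcl11 and Hao2, in 4 for Fam241a and Mgst1, and in 2 for Amph, Slc25a48, Ciapin1 and Fabp1. The highest adjusted p over these fits was 0.0963 for Fam241a, 0.0832 for Mgst1, 0.126 for Amph and Slc25a48, and 0.127 for Ciapin1. Without both muscle-rich arrays Mgst1 (adjusted p = 0.0621), Ciapin1 (0.0812) and Fabp1 (0.122) lost this call. For ccdc198, Slc25a48, Cldn8 and Hao2, as for Amph, some groups lay under the array medians, so the sizes of their differences between segments are those of the fit.

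Genes of fat handling changed one by one. Of 17 measured genes of fatty acid uptake and binding, 2 rose, Fabp1 and Slc27a2, and none fell (all genes: 0.42% higher). Slc27a2, an acyl-CoA synthetase of very long chain fatty acids, read 8.72, 9.28 and 9.27 in wild type and 9.81, 9.82 and 9.99 in Casp1-null ileum and rose 1.72-fold (adjusted p = 0.0241), with an adjusted p of up to 0.114 when 1 array was left out (Casp1-null array 3) and 0.0987 without both muscle-rich arrays. The median difference of the list was 0.13, and 0.04 without both muscle-rich arrays. Cd36, a fatty acid transporter that adipocytes and endothelium also express, read 4.49, 8.82 and 4.55 against 5.95, 5.49 and 9.03, highest on the muscle-rich arrays.

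Of 31 genes of lipoprotein assembly and secretion, Apoc2 rose, none fell and 30 were not called, with a median difference of 0.04 (all genes: 0.42% higher, 0.473% lower). The core of the pathway was at high levels: Apob read 12.54, 12.15 and 12.43 in wild type and 12.62, 12.44 and 12.60 in Casp1-null ileum, and Mttp, which loads it with lipid, 12.12, 11.71 and 12.12 against 11.87, 12.03 and 11.87. The genotypes overlapped for Apob and Mttp. Apoa4, an apolipoprotein of chylomicrons induced by fat, read 12.80, 12.11 and 12.59 against 13.04, 12.86 and 13.01, a difference of 0.47 that was not called (adjusted p = 0.156), and a second probe set gave 0.84 (0.265). Vesicle coat and cargo genes such as Sar1b (0.04) and Mia3 (0.03) had differences near 0. None of 19 genes of triglyceride synthesis was called (median 0.01), and Dgat1, which makes the final ester bond, read 11.68, 11.37 and 11.72 against 11.62, 11.69 and 11.71.

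Genes of fatty acid oxidation leaned upward with few calls. Of 31 measured, 2 rose, none fell and 29 were not called (all genes: 0.42% higher). The median difference was 0.17, and 0.18 without both muscle-rich arrays, against -0.01 over all genes. In 13 of the 31 every Casp1-null array lay above every wild-type array, beside 4.49% of all genes, and in none the reverse, beside 4.74%. The lean was not particular to the ileum. The mean level of the list was 10.26 in Casp1-null against 10.05 in wild-type duodenum, and 9.80 against 9.59 in jejunum. Angptl4, a fasting-induced inhibitor of lipoprotein lipase placed on this list, read 9.51, 9.46 and 9.69 in wild type and 10.46, 10.52 and 10.74 in Casp1-null ileum. It rose 2.03-fold (SE 0.151; adjusted p = 0.00316), with an adjusted p of 0.0645 without both muscle-rich arrays. Acaa2, the thiolase that ends each round of mitochondrial β-oxidation, read 11.09, 11.44 and 11.44 against 11.75, 12.10 and 12.01 and rose 1.55-fold (adjusted p = 0.0402), called in 1 of the 6 fits with 1 array left out (adjusted p up to 0.193, without wild-type array 1). Its adjusted p was 0.162 without both muscle-rich arrays. Angptl4 and Acaa2 were called higher in jejunum too (1.37 and 1.13) but not in duodenum (0.65 and 0.29).

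Members of the oxidation list that missed the threshold are named after their values had been seen. Pdk4, the kinase that turns off pyruvate dehydrogenase in fasting and is abundant in muscle, read 6.96, 9.30 and 7.21 in wild type and 9.42, 10.14 and 10.06 in Casp1-null ileum. The difference was 2.05 (adjusted p = 0.0521), and wild-type array 2, rich in muscle, was the one near the mutants. Without both muscle-rich arrays the difference for Pdk4 was 2.69 (adjusted p = 0.00069). Acadl, an acyl-CoA dehydrogenase, differed by 0.61 (adjusted p = 0.0793), and was called higher in duodenum (0.67) and jejunum (0.67). Of 20 lipogenesis genes none was called, with a median of 0.23, and 0.13 without both muscle-rich arrays. The mean level of this list was 7.98 and 8.18 on that pair and 7.41 to 7.60 on the other 4 arrays. Me1, which supplies NADPH, read 6.85, 7.35 and 6.46 against 7.99, 8.28 and 8.16 (1.25, adjusted p = 0.219). None of 20 genes of cholesterol synthesis (median -0.11), 9 of sterol transport (-0.05) and 22 of lipid droplets and lipases (0.17) was called. The lipid droplet median was 0.06 without both muscle-rich arrays, which read 8.20 and 8.55 for this list against 7.48 to 7.63 on the others.

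**Figure D5:**
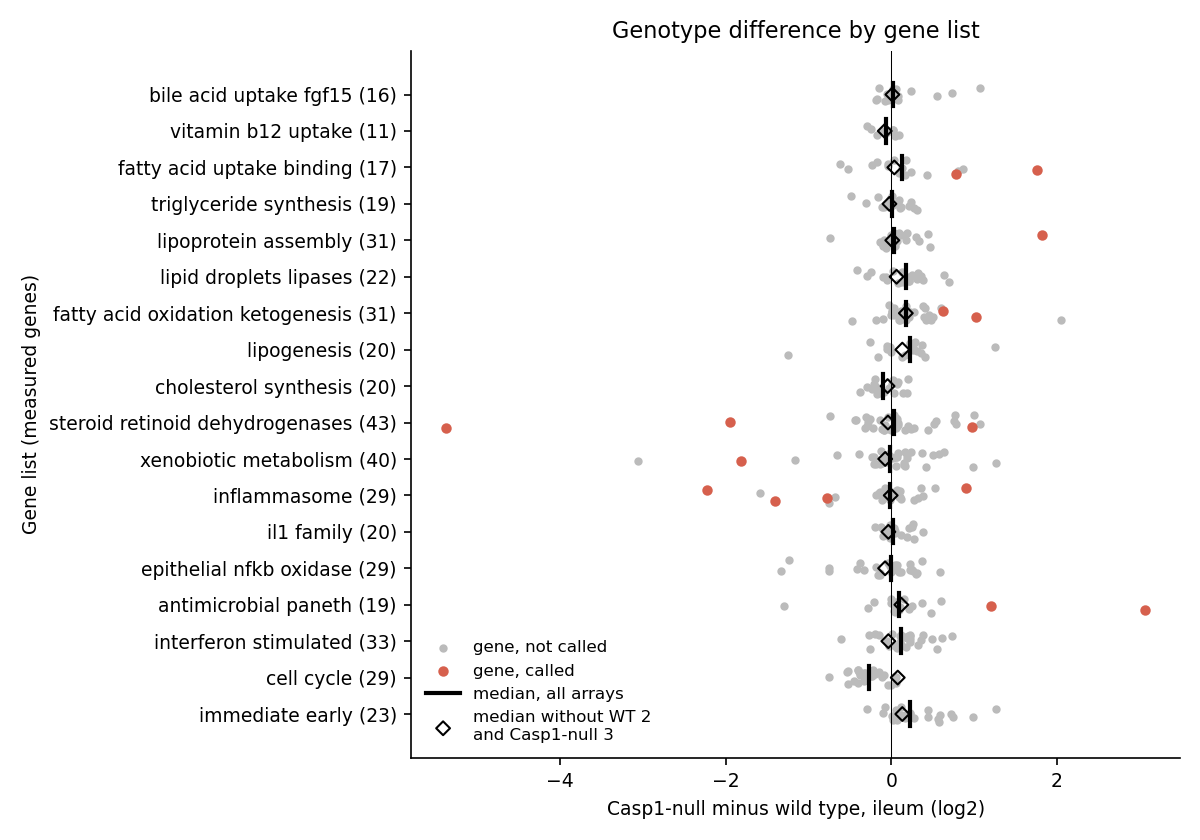
Genotype difference in ileum (log2, Casp1-null minus wild type) for the measured genes of 18 lists, with called genes in red, the median over all arrays as a bar and the median without wild-type array 2 and Casp1-null array 3 as a diamond. The medians lie between -0.27 for the cell cycle and 0.23 for lipogenesis, the cell cycle median moves to 0.08 without these arrays, and Hsd3b3 is the lowest and Fabp1 and Reg1 the highest of their lists.

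Lists of functions that mark the ileum held no called gene. With 0.893% of all genes called, a short list without a call is not set apart from the rest. None of 16 measured genes of bile acid uptake and FGF15 signalling and none of 11 of vitamin B12 uptake was called, with medians of 0.03 and -0.06. Fabp6, the ileal bile acid binding protein, read 12.61, 12.35 and 12.53 in wild type and 12.10, 12.39 and 12.47 in Casp1-null samples. Fgf15 read 7.13, 6.48 and 7.74 against 6.31, 7.22 and 7.27, and Cubn, the receptor for B12 bound to intrinsic factor, 12.33, 11.91 and 12.26 against 11.86, 12.14 and 12.17. The genotypes overlapped for Fabp6, Fgf15 and Cubn. The pooled spread was wide for some of these genes, with an SE of 0.575 for Slc10a2 and 0.841 for Fabp6, beside an SD of 2.58 for Fabp6 over the 3 wild-type jejunal arrays. Cyp27a1, which hydroxylates sterols, was the member with the smallest p, at 8.43, 7.89 and 8.61 against 9.40, 8.89 and 9.84 (1.07, adjusted p = 0.124).

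Steroid, retinoid and foreign-compound enzymes changed in single members. Of 43 measured genes of steroid and retinoid dehydrogenases, Adh1 rose, Hsd3b2 and Hsd3b3 fell and 40 were not called (median 0.03), beside 0.893% of all genes called. Adh1, an alcohol and retinol dehydrogenase, read 9.78, 9.37 and 9.55 in wild type and 10.67, 9.94 and 11.02 in Casp1-null ileum, a 1.96-fold rise (adjusted p = 0.0475; 0.186 without Casp1-null array 3 and 0.402 without both muscle-rich arrays). Of 40 genes of foreign-compound metabolism Cyp2c68 fell and none rose (median -0.01; all genes: 0.473% lower). Cyp2c68 was not the largest difference on this list. Differences ran from -3.05 for Cyp2c55 to 1.26 for Cyp3a11, both named after their values had been seen and neither called. An unadjusted p under 0.05 was found for 8 of the 40, beside 1299 of 18820 genes.

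Antimicrobial and host defence genes showed 2 rises. Among 19 antimicrobial genes, Reg1 and Mptx1 rose and none fell (median 0.10; all genes: 0.42% higher). Mptx1, a secreted pentraxin of the intestine, read 4.24, 4.07 and 3.74 in wild type and 4.88, 5.50 and 5.27 in Casp1-null ileum and rose at least 2.30-fold (adjusted p = 0.00626; 0.0656 without both muscle-rich arrays). None of 33 interferon-stimulated genes (median 0.11) and none of 9 genes of MHC class II presentation (0.11) was called. These medians were -0.04 and 0.04 without both muscle-rich arrays.

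Epithelial oxidase and NF-κB genes, 29 measured, gave no call in ileum (median -0.00; 1 gene at an unadjusted p under 0.05). Nos2, the inducible nitric oxide synthase, read 11.36, 10.63 and 11.54 in wild type and 11.53, 10.72 and 11.15 in Casp1-null ileum. Duox2, an epithelial hydrogen peroxide source, read 11.53, 10.72 and 10.90 against 10.88, 10.44 and 9.56, and its maturation factor Duoxa2 differed by the same -0.75 (adjusted p = 0.999 for both). Ccl20, a chemokine for dendritic cells and B cells, differed by -1.24 (adjusted p = 0.612). In jejunum, Nos2 (-3.73), Duox2 (-3.55), Duoxa2 (-3.93) and Ccl20 (-3.69) fell. The ileal difference was tested against the mean of duodenum and jejunum, not against jejunum alone, and was not called (adjusted p = 0.367 for Nos2, 0.838 for Duox2, 0.775 for Duoxa2 and 0.908 for Ccl20). The unadjusted p of that test was 0.0009 for Nos2, 0.045 for Duox2, 0.025 for Duoxa2 and 0.142 for Ccl20.

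Among genes of early response and mineral uptake no member was called. Nr4a1, an immediate early nuclear receptor, read 4.58, 4.91 and 4.80 in wild type and 4.99, 5.88 and 6.39 in Casp1-null ileum (adjusted p = 0.116), and Jund 9.21, 8.73 and 9.10 against 9.64, 9.64 and 9.52 (0.59, adjusted p = 0.125). Of 23 immediate early genes, 8 had an unadjusted p under 0.05, beside 1299 of 18820 genes. Their median was 0.22, and 0.13 without both muscle-rich arrays. Of 21 iron and mineral genes, Slc20a1, a phosphate transporter, differed by 0.76 (adjusted p = 0.289), and Slc40a1, the iron exporter ferroportin, by -0.98 (0.44). These genes were named for their small p, and the differences on the list ran from -0.98 to 2.29. None of 16 clock genes (-0.05), 31 genes of ER and amino acid stress (-0.07) and 29 cell cycle genes (-0.27) was called.

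Marker lists of other cells gave no call apart from Fabp1 and Reg1, which sit on the proximal and pancreatic lists. No marker was called among 25 of enterocytes (median 0.05), 15 of the distal intestine (-0.07), 6 of Paneth cells (0.04) and 12 of goblet cells (0.05). Of 18 enteroendocrine and 13 tuft cell markers none was called either, and their medians were -0.25 and -0.30, or -0.31 and -0.37 without both muscle-rich arrays. T and NK cell markers had a median of 0.26 and B and plasma cell markers of -0.19, which became 0.02 and -0.64 without both arrays, with no marker called. Smooth muscle markers had a median of -0.28 (-0.01 without both arrays), fibroblast markers of 0.03 (-0.04) and endothelial markers of 0.13 (-0.05), likewise with no call. Fewer cells of a type and less RNA per cell cannot be told apart in these samples.

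The microRNA gene Mir200b, named after its values had been seen, was among the falls. Its probe set read 6.28, 6.37 and 6.78 in wild type and 5.75, 5.11 and 5.39 in Casp1-null ileum, a 2.08-fold fall (SE 0.198; adjusted p = 0.0179; up to 0.105 with 1 array left out, wild-type array 3, and 0.114 without both muscle-rich arrays). Mir200a, next to it on chromosome 4, read 6.06, 5.78 and 6.27 against 5.76, 5.56 and 4.91 (-0.63, adjusted p = 0.742). These microRNAs of epithelial cells keep the transcription factors of mesenchymal change low. An array of total RNA does not show how much of the signal is precursor and how much mature strand. The mature 3p strands are shown with the seed, bases 2 to 8, in capitals (RefSeq, GRCm38.p6, minus strand, chr4:156055685-156055706 and chr4:156054911-156054932).
mmu-miR-200b-3p: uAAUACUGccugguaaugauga
mmu-miR-200a-3p: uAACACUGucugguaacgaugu
The seeds AAUACUG and AACACUG are not the same, so the pair belongs to different seed groups.

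Some called genes lay beside each other on the chromosomes. Of the 168, 57 had another called gene within 5 measured genes along GRCm38.p6, in 26 runs of 2 or 3 genes, and this was not compared with chance. The genes of these runs were chosen after their values had been seen. On chromosome 3, Hsd3b2, Hsd3b3 and Hao2 formed one run, all lower. On chromosome 14, ccdc198 lay between Tmem260, which fell 1.99-fold (adjusted p = 0.00037), and Armh4 (adjusted p = 0.00316, both groups under the array medians). Tmem260 was lower by as much in duodenum (-0.92) and jejunum (-1.09), unlike ccdc198.

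The genes of 21 runs changed in one direction. The other 5 held both directions, among them Camk2b, lower, with Nudcd3, higher, and Vps18, lower, with Exd1, higher. Nudcd3 and Vps18 were each called in 2 of the 6 fits with 1 array left out. Vps18 was not called without both muscle-rich arrays (adjusted p = 0.0801), and a second probe set of Nudcd3 differed by -0.04 and was not called. Gipc2 lay beside Miga1 and fell 2.13-fold (adjusted p = 0.000485), though a second probe set of Gipc2 differed by -0.01. Coq9, of coenzyme Q synthesis, lay beside Ciapin1 and rose 1.61-fold (adjusted p = 0.000105), and Hccs, which attaches haem to cytochrome c, lay beside Arhgap6 and rose 1.79-fold (adjusted p = 0.000996). Csta2, a relative of Cstdc4 whose probes may share sequence with it, was lower beside it (adjusted p = 0.0254, both groups under the array medians; up to 0.116 with 1 array left out, Casp1-null array 3). By chromosome, the share of genes called ran from 0 of 874 on chromosome 10 to 20 of 1114 on chromosome 4 (1.795%), while chromosome 9, which carries Casp1, had 3 of 1100 (0.273%). Of the 168 called genes, 74 were called in duodenum as well, 97 in jejunum, 72 in both and 69 in neither. The shares of all genes called in duodenum and in jejunum were not counted here. The sign was the same in all 3 segments for 148 of the 168. A call in ileum alone is therefore no sign of a difference particular to it, and the test between segments called 11 genes.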

How the data were processed

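RNA of scraped intestinal epithelium was hybridised to Affymetrix whole-transcript arrays from 100 ng of total RNA with a RIN above 8.0, per the labels' protocols. The authors deposited normalised log2 values of 35556 probe sets on 24 arrays, made with RMA per the submitters' processing notes. No source used here gives its version. A gene was represented by its probe set with the highest mean over the 24 arrays, giving 18820 genes from 21218 probe sets with 1 symbol. A further 1881 had several and 12457 none.

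The 18 intestinal arrays were fitted in 6 groups with limma 3.58.1 (R 4.3.3, statmod 1.5.0; lmFit, eBayes, 12 residual degrees of freedom), and p-values were adjusted over all probe sets by the Benjamini-Hochberg method. Within groups the arrays correlated between 0.979 and 0.993 across probe sets, and none of 15 ileal pairs was identical. The fit was tested on simulated data.

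Named genes were Casp1, the muscle markers, the 15 largest called rises and the 15 largest called falls without overlap, up to 4 called members of a list or otherwise the 2 with the smallest p, the 10 genes with the smallest p for ileum against proximal segments, and the calls kept in all fits with fewer arrays. Members, lists and the reading of low levels were chosen with earlier results of these data known. The alternatives were other normalisation, filters, variance models, blocks, a muscle covariate and fewer arrays.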

Additional observations from a re-analysis of the deposited data

Results flagged for a closer look

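A test of the difference itself singled out 11 genes whose genotype difference in ileum departed from the mean of those in duodenum and jejunum (log2, ileum minus proximal). On the negative side the values were -4.29 for ccdc198, -2.78 for Pik3ap1, -2.20 for Slc25a48, -2.13 for Cldn8, -1.53 for Hao2 and -0.92 for Fam241a. On the positive side they were 1.79 for Fabp1, 1.70 for Cxcl11, 1.51 for Amph, 0.94 for Mgst1 and 0.67 for Ciapin1. For ccdc198, Slc25a48, Cldn8, Hao2 and Amph some groups lay under the ileal array medians, so these sizes are those of the fit. Over 17 settings, ccdc198, Pik3ap1 and Cldn8 were called in all 17 and Cxcl11 in 16, while Ciapin1 and Fabp1 were called in 10.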

How the results depend on the processing

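The counts of 168 called genes, 79 higher and 89 lower, and of 11 genes between segments depended most on the number of arrays and the size of change asked for. The 6 ileal arrays alone gave 23 calls, 11 higher and 12 lower, and 35 with the smooth muscle score as covariate, 15 higher and 20 lower. A minimum change of 1.5-fold gave 25, 12 higher and 13 lower, and 3 between segments. Array weights gave 251 calls with 134 lower, and 19 between segments. Without both muscle-rich arrays 42 were higher and 75 lower. Leaving out 1 ileal array gave 109 to 168 calls, 53 to 83 higher and 52 to 102 lower, and 5 to 14 between segments. The share of calls that were higher was 47% as reported, 41.3% with median centring and 35.9% without both muscle-rich arrays. The replicate numbers were not taken as pairs, since not every correlation of deviations was over 0.1: between ileal wild-type and Casp1-null arrays of the same number they were 0.304, -0.345 and -0.376, and between ileum and duodenum of Casp1-null mice 0.0469, 0.173 and 0.0952. With the replicate number as a block across both genotypes 151 genes were called, 147 of them shared, and 8 between segments. A random block joined segments of the same genotype and number, as if from the same mouse. It gave 169 calls, 167 of them shared, and 14 between segments. The labels do not say whether segments came from the same mice, and the fit reported here treats them as separate. Casp1 stayed called throughout, with adjusted p up to 0.04. Of 1255 alternative values for 70 genes, 185 lost and 13 gained the call and none turned direction. Of 755 alternative list medians 20 moved beyond the spread.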
